A study of Mus musculus with 8 samples.

Results

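The genes described here are 10 effectors that interferon strongly induces, namely *Isg15*, *Usp18*, *Ifit1*, *Ifit2*, *Ifit3*, *Ifit3b*, *Rsad2*, *Mx1*, *Mx2* and *Cmpk2*. They were chosen by symbol, as 10 of the 41325 gene symbols listed in each library, and all 10 were found. The choice was made with earlier results of these same libraries known, so the levels and ratios of the 10 genes are given as a description, with no test. Their mRNA was followed by RNA-seq in C3H10T1/2, a line of mouse mesenchymal stem cells (MSCs) that adipogenic medium can turn into adipocytes. The study set control cells (shControl, given the genotype WT in the labels) beside 3 stable lines carrying an shRNA against *Kdm4d* (shKDM4D), *Nfib* (shNFIB) or *Mll1* (shMLL1, gene symbol *Kmt2a*). KDM4D is a histone H3 lysine demethylase, NFIB a transcription factor and MLL1 a histone H3 lysine methyltransferase. Each line was sequenced once before induction, after confluence (day 0), and once at day 5 of adipogenic differentiation, which gives 8 libraries with 1 library per condition.

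All the day 5 libraries came from cells that had been given insulin, dexamethasone and isobutylmethylxanthine in serum, then insulin, then serum alone, and the labels name no interferon in the treatment. The knockdown lines were puromycin-resistant clones of cells that had received the pLKO.1 vector, and which clone was sequenced is not stated in the sources used here. A difference between 2 lines can therefore not be told apart from a difference between 2 clones or 2 cultures.

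Cells release type I interferon when their sensors meet viral RNA or DNA. The interferon binds the receptor IFNAR1/IFNAR2, and a complex of transcription factors that includes STAT2 and IRF9 then enters the nucleus and binds a short DNA element, the interferon-stimulated response element, beside many genes. ISG15 is a ubiquitin-like protein that is attached to other proteins, and USP18 removes it again and also blocks the receptor. Some IFIT proteins bind viral RNA and hold back its translation. RSAD2 (viperin) makes a nucleotide that stops viral RNA synthesis, and CMPK2 is a nucleotide kinase of the mitochondria. MX1 and MX2 belong to a family of dynamin-like GTPases that can block incoming virus, and whether these cells make working forms was not measured.

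The promoters of these genes are shown because that complex acts through an element in promoters of this kind. In the GENCODE M21 annotation of GRCm38, *Ifit2*, *Ifit3*, *Ifit3b* and *Ifit1* lie in this order on the plus strand of chromosome 19 within 99.32 kb. *Rsad2* (minus strand) and *Cmpk2* (plus strand) are neighbours on chromosome 12 with 12.75 kb between them, and *Mx1* (minus strand) and *Mx2* (plus strand) are 72.4 kb apart on chromosome 16. *Isg15* is on chromosome 4 (156199424 to 156200818, minus strand) and *Usp18* on chromosome 6 (121245906 to 121270917, plus strand). *Mx2* is annotated as a polymorphic pseudogene and the other 9 as protein coding. RefSeq promoter windows of 300 bases (250 before and 50 after the start site, GRCm38.p6) were matched for 7 of the 10 genes, and *Usp18*, *Mx1* and *Mx2* had none. Each window was searched on both strands for the core of the element, which reads GAAA, any 2 bases, GAAA on 1 strand and TTTC, any 2 bases, TTTC on the other. The windows below are written 5′ to 3′ on the strand of the gene, with the matches in capitals.

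*Isg15*, chr4:156200769-156201068 (minus strand), has 3 matches that overlap each other, from 78 to 57 bases before the start site. *Ifit1*, chr19:34640639-34640938 (plus strand), has 2 matches that begin 104 and 85 bases before it. *Rsad2*, chr12:26456403-26456702 (minus strand), has 1 match that begins 120 bases before it, and *Cmpk2*, chr12:26468965-26469264 (plus strand), has none in this window.
Isg15: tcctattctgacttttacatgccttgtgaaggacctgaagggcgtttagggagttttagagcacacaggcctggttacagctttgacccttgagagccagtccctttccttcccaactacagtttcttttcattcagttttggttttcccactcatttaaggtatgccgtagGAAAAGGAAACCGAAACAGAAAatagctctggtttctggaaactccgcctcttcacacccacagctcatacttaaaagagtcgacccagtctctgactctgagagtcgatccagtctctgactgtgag
Ifit1: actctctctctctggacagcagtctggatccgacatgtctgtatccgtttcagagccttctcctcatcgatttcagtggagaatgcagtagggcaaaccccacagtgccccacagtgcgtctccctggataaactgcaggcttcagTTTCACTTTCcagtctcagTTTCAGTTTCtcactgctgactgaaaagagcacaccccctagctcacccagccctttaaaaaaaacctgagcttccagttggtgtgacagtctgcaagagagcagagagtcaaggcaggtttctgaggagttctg
Rsad2: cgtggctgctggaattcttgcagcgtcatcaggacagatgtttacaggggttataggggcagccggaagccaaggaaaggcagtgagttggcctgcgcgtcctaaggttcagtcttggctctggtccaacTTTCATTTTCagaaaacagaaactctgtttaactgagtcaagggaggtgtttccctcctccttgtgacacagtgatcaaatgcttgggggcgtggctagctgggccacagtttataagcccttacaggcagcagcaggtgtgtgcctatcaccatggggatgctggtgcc
Cmpk2: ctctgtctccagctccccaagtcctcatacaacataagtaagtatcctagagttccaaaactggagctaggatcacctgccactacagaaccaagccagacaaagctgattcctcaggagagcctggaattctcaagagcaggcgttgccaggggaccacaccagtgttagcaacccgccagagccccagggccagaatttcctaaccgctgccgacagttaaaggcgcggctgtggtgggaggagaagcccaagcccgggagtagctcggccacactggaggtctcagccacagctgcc

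*Ifit3* and *Ifit3b*, which are close copies of each other, share an identical run of 169 bases that holds both of their matches. It lies at chr19:34583311-34583479 before *Ifit3* and at chr19:34607707-34607875 before *Ifit3b*, both on the plus strand.
Ifit3 and Ifit3b: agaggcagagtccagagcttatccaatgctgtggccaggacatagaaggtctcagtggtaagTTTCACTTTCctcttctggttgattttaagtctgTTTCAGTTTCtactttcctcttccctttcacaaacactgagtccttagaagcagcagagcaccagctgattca
A match was thus present in 5 of the 7 genes with a window (71.4%) and absent from the windows of *Cmpk2* and *Ifit2*. Of all 32851 RefSeq windows of the same length, 1131 (3.44%) held at least 1 match, against 5 of the 8 windows of these genes, since *Ifit2* has 2. Counted by gene symbol, the share was 1079 of 27025 (3.99%). A match is a stretch of letters and not a measured binding site.

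**Figure D1:**
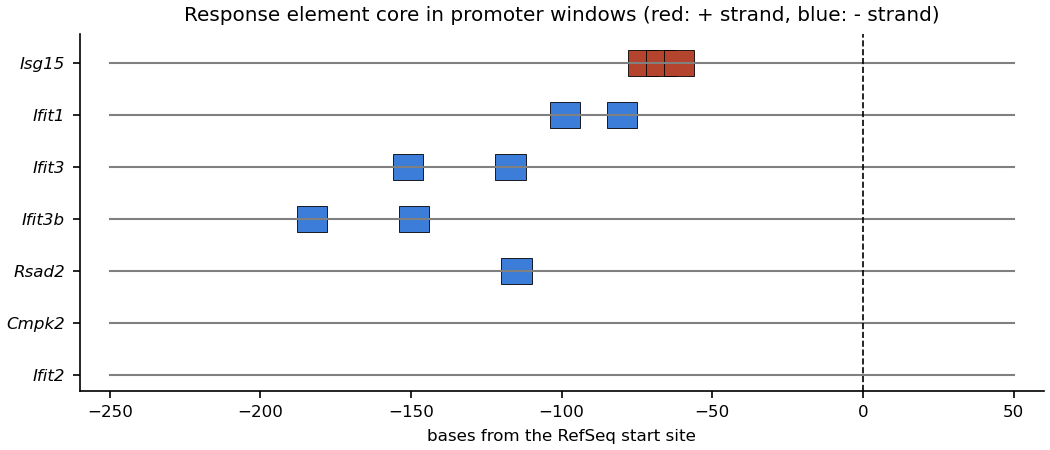
The core of the interferon-stimulated response element in the promoter windows of 7 genes, by distance from the RefSeq start site in bases (dashed line), with each box 1 match. The matches of 5 genes lie between 188 and 57 bases before the start site, and the windows of *Cmpk2* and *Ifit2* hold none.

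The values are RPKM, which divides the reads of a gene by its exon length and by the mapped reads of the library. A comparison between libraries therefore also depends on what else took up their reads. The 2 genes that resemble ribosomal RNA (rRNA-like genes) took 8.0% to 10.5% of the mapped reads at day 0 and 3.1% to 3.6% at day 5. All values of the 10 genes came out as whole reads once multiplied by the exon length and the depth. The depth recovered in this way was 15842000 to 38203000 mapped reads, with shMLL1 cells at both days the deepest and shNFIB cells at day 5 the shallowest. Of the targeted genes, *Nfib* was lower in shNFIB cells by a log2 ratio of -2.10 at day 0 and -2.33 at day 5, and *Kdm4d* had 15 reads or fewer in every library, so its knockdown could hardly be read. *Kmt2a* as deposited was at an RPKM of 2.00 and 1.63 in shMLL1 cells against 5.17 and 5.27 in shControl cells. These 2 shMLL1 values of *Kmt2a* did not come out as whole reads (1274.9 and 1033.66), whereas those of the other 6 libraries did. Among 8075 genes with 50 to 5000 reads in every library, 7697 were whole in all 8 libraries, 375 in 3 or fewer, and *Kmt2a*, *Cebpa* and *Pparg* were the 3 in between, so the check of the shMLL1 label by its target rests on values that stand apart from most others in this respect. Adipocyte markers summed to 831 RPKM at day 5 in shControl cells and to 39.1, 12.1 and 12.5 in shKDM4D, shNFIB and shMLL1 cells. Mesenchymal markers summed to between 824 and 1360, most of it from *Col1a1* and *Col1a2* in every library. *Thy1* was at 0.14 or below in shKDM4D and shNFIB cells. In shMLL1 cells *Thy1* was at 11.8 at day 0 and 11.1 at day 5, against 25.0 and 22.6 in shControl cells. *Nt5e*, also on this list, was at 0.0218 or below in every library. Leukocyte markers summed to between 4.61 and 9.86, most of it from *Cd14* in every library. *Cd14* at day 5 had an RPKM of 8.24 for shMLL1, 6.38 for shNFIB, 4.03 for shKDM4D and 3.06 for shControl. Its log2 ratio to the control was 1.43 with the MLL1 knockdown and 1.06 with the NFIB knockdown. The control level of *Cd14* at day 0 was 6.61. *Cd68* was lower with the NFIB knockdown at day 5 (-1.30), and *Aif1* with the MLL1 knockdown (-1.20, 6 reads against 7). *Ptprc*, *Adgre1* and *Itgam* were at or near 0.

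*Isg15* and *Usp18*, the modifier and the protease that removes it, were low in every library but those of shNFIB and shMLL1 cells at day 5. The RPKM of *Isg15* was 1.54 at day 0 and 3.70 at day 5 for shControl, 0.406 and 1.90 for shKDM4D, 0.213 and 76.6 for shNFIB and 1.00 and 192 for shMLL1. The day 5 libraries of shNFIB and shMLL1 cells stood apart, and the counting intervals of the 5 lowest libraries overlapped from 1 neighbour to the next. Against shControl cells at day 5, the log2 ratio of *Isg15* was 4.37 (exact 95% interval 3.98 to 4.80) in shNFIB cells and 5.70 (5.31 to 6.11) in shMLL1 cells, and -0.96 (-1.65 to -0.30) in shKDM4D cells. These intervals cover counting error only, since no condition has a replicate, and any duplicate reads, which were not measured, would make them too narrow. The RPKM of *Usp18* was 1.01 and 1.11 for shControl, 0.183 and 0.630 for shKDM4D, 0.0576 and 17.0 for shNFIB and 0.357 and 66.7 for shMLL1. With shControl at day 5 as the base, its log2 ratio was 3.93 (3.55 to 4.34) in shNFIB cells and 5.91 (5.54 to 6.30) in shMLL1 cells. In bulk RNA, more responding cells and more RNA per cell cannot be told apart.

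The most abundant of the 10 genes in every library was an IFIT gene, *Ifit2* or *Ifit3*. The RPKM of *Ifit3* was 26.0 and 48.5 for shControl, 10.5 and 45.7 for shKDM4D, 14.6 and 489 for shNFIB and 7.68 and 1133 for shMLL1, where it reached 75387 reads. The RPKM of *Ifit1* was 11.3 and 17.0 for shControl, 2.89 and 13.5 for shKDM4D, 3.61 and 273 for shNFIB and 3.59 and 386 for shMLL1. In both genes, shMLL1 cells were at or near the bottom of the day 0 libraries and at the top of the day 5 libraries. The RPKM of *Ifit3b* was 5.93 and 16.7 for shControl, 5.19 and 17.5 for shKDM4D, 4.80 and 128 for shNFIB and 2.38 and 314 for shMLL1, and reads of *Ifit3* and *Ifit3b* may have been shared between the copies. Against shControl cells at day 5, the log2 ratio in shNFIB cells was 4.0 (3.90 to 4.10) for *Ifit1*, 3.33 (3.26 to 3.41) for *Ifit3* and 2.94 (2.82 to 3.06) for *Ifit3b*. In shMLL1 cells it was 4.50 (4.41 to 4.60), 4.55 (4.47 to 4.62) and 4.24 (4.12 to 4.35).

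*Ifit2*, of the same family and cluster, had another pattern. Its RPKM was 25.0 at day 0 and 12.9 at day 5 for shControl, 19.4 and 12.2 for shKDM4D, 24.6 and 28.6 for shNFIB and 17.8 and 54.6 for shMLL1. It was the most abundant of the 10 in 3 of the day 0 libraries and second to *Ifit3* in shControl cells at day 0. From day 0 to day 5 its log2 change was -0.95 (-1.06 to -0.84) in shControl cells and -0.67 in shKDM4D cells, against 0.22 (0.12 to 0.31) in shNFIB cells and 1.62 in shMLL1 cells. Its ratio to shControl cells at day 5, a log2 value of 1.15 (1.03 to 1.26) in shNFIB cells and 2.08 (1.98 to 2.18) in shMLL1 cells, is thus taken against a control that was lower at day 5 than at day 0.

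*Mx1* and *Mx2*, the GTPases, were rare before differentiation. The RPKM of *Mx2* was 0.405 and 1.13 for shControl, 0.0566 and 0.730 for shKDM4D, 0.133 and 12.4 for shNFIB and 0.0797 and 25.2 for shMLL1. The RPKM of *Mx1* was 0.0198 and 0.383 for shControl, 0 and 0.159 for shKDM4D, 0.0425 and 2.92 for shNFIB and 0.0553 and 11.8 for shMLL1. For *Mx1* the day 0 libraries held 8 reads or fewer, and their intervals overlapped. Against shControl cells at day 5, the log2 ratio of *Mx2* was 3.46 (3.12 to 3.81) in shNFIB cells and 4.48 (4.16 to 4.82) in shMLL1 cells, and that of *Mx1* was 2.93 (2.35 to 3.56) and 4.95 (4.41 to 5.54).

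*Rsad2* and *Cmpk2*, the neighbours that act on nucleotides, were seen above a few reads in 1 library only. *Rsad2* had 710 reads (RPKM 4.30) in shMLL1 cells at day 5, 3 reads in shMLL1 cells at day 0, 1 read in shControl cells at day 0 and 0 reads in the other 5 libraries. *Cmpk2* had 360 reads (RPKM 2.27) in shMLL1 cells at day 5 and 2 reads or fewer in each of the other 7. Neither was thus above 2 reads in shNFIB cells at day 5, where *Isg15* and *Ifit3* were high, and for *Rsad2* 3 reads there would be an RPKM of 0.0437, while the exact 95% upper limit of its count of 0 was 0.0537. Against shControl cells at day 5, *Rsad2* was 120-fold higher in shMLL1 cells with the control, at 0 reads, set to 3 reads, and the exact interval of its log2 ratio began at 6.60. The log2 ratio of *Cmpk2* was 6.51, with an interval from 4.65 to 9.56 because shControl cells had 2 reads.

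**Figure D2:**
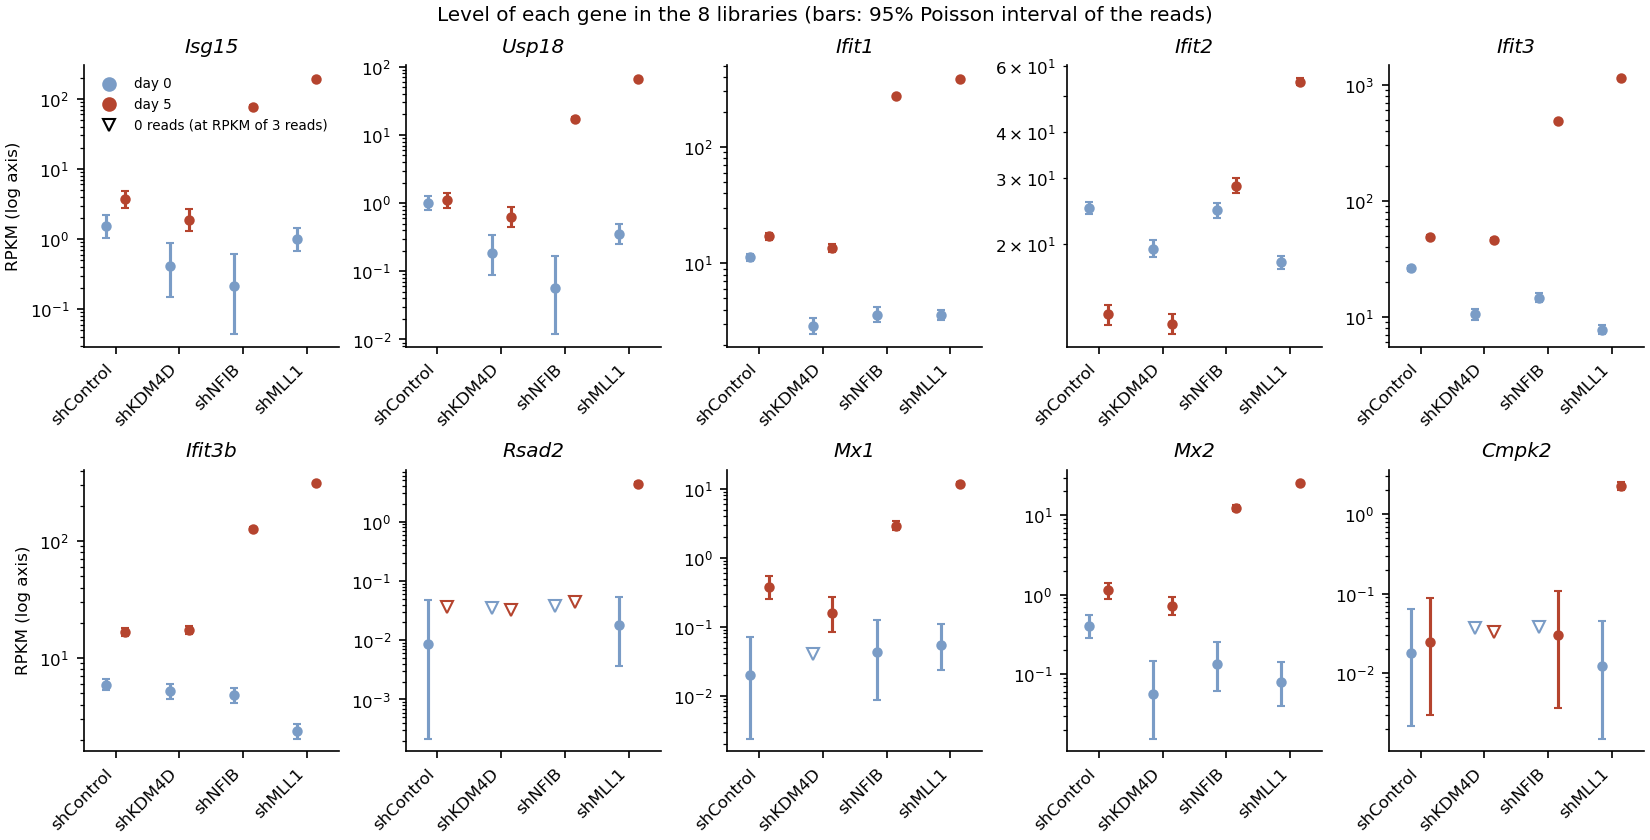
RPKM of each of the 10 genes (log axis, a scale of its own in each panel) in the 4 lines at day 0 (blue) and day 5 (red), 1 library per point, with the 95% Poisson interval of its reads, and open triangles for libraries at 0 reads, drawn at the RPKM of 3 reads. The shMLL1 library of day 5 is the highest in all 10 panels and the shNFIB library of day 5 the next in 9, *Rsad2* being the exception.

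In summed reads, the 10 genes took 0.0226% of the mapped reads of shControl, 0.0205% of shKDM4D, 0.211% of shNFIB and 0.434% of shMLL1 libraries at day 5. At day 0 the shares were 0.0191%, 0.0113%, 0.0142% and 0.01%. The shMLL1 library of day 5 had the highest level of all 10 genes, and its interval overlapped that of the next library in none of them. The shNFIB library of day 5 was second for 9 genes. It was separated from the library ranked after it in 8 of those, and not in *Cmpk2*. The library ranked after it was shControl at day 5 in 7 of the 9 genes, *Cmpk2* among them. For *Ifit3b* it was shKDM4D at day 5, and for *Ifit2* it was shControl at day 0.

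The members were then counted against all genes expressed, namely 11448 genes that had an annotated exon length and exceeded an RPKM of 1 somewhere in the 8 libraries. A gene was called when its RPKM ratio passed 2-fold, with values under 3 reads first raised to 3 reads. The comparisons of the 3 knockdown lines at 1 day share the shControl library of that day, so they are not independent of each other. In shMLL1 cells at day 5, 10 of 10 members were higher than in shControl cells and 0 were lower, with a median log2 ratio of 4.75, against 5.02% of all genes higher and 3.88% lower. In shNFIB cells at day 5, 8 of 10 were higher and 0 lower (median 3.14), against 5.24% and 5.56% of all genes. The remaining 2 were *Rsad2* and *Cmpk2*. In shKDM4D cells at day 5, 0 were higher and 1 was lower (*Mx1*, 13 reads against 28), against 1.67% and 4.26% of all genes, with a median of -0.21. The members were listed with these values in view, so nothing is read from the counts, and the median of all genes was between 0.0 and 0.09 in the 3 comparisons.

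At day 0 the members called were lower in all 3 lines, at low levels. This was the opposite of day 5 in shNFIB and shMLL1 cells but not in shKDM4D cells. In shKDM4D cells, 5 of 10 members were lower than in shControl cells and 0 higher (median log2 ratio -0.84), against 3.53% of all genes lower and 1.67% higher. In shNFIB cells, 4 were lower and 0 higher (median -0.57), against 5.33% and 2.60% of all genes. In shMLL1 cells, 5 were lower and 0 higher (median -0.97), against 6.87% and 1.35% of all genes. With 1 added to every RPKM, the lower members were 2, 2 and 3. *Ifit1*, *Usp18* and *Mx2* were called lower in each of the 3 lines. The log2 ratio of *Ifit1*, which had 800 reads in shControl cells, was -1.97 (-2.23 to -1.71) in shKDM4D cells, -1.65 (-1.89 to -1.41) in shNFIB cells and -1.66 (-1.84 to -1.48) in shMLL1 cells. *Ifit3* was lower in shKDM4D (-1.31) and shMLL1 cells (-1.76), and *Ifit3b* in shMLL1 cells (-1.32). *Isg15* was lower in shKDM4D cells (6 reads against 31) and shNFIB cells (3 reads), and its ratio in shMLL1 cells was -0.62 (-1.40 to 0.16). All 3 lines are set against 1 shControl library here, and how far that library would vary on repetition is not known.

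**Figure D3:**
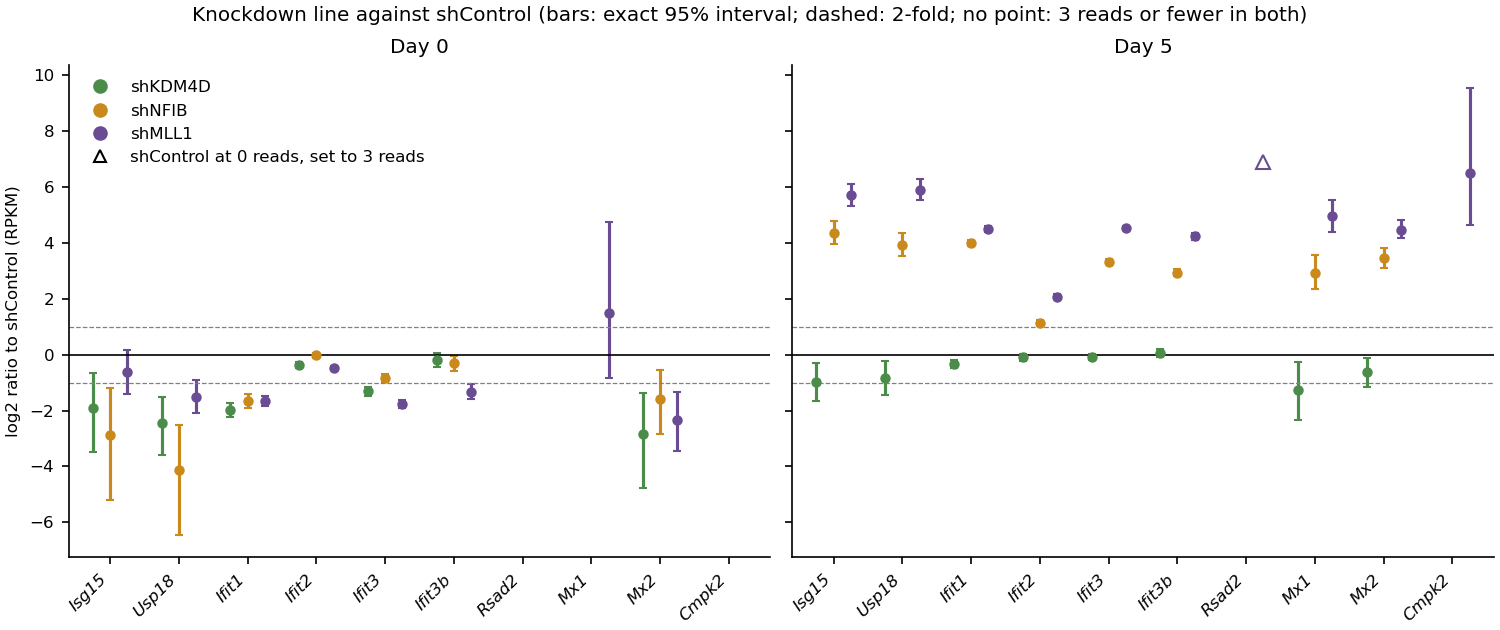
Log2 RPKM ratio of each knockdown line to shControl cells at day 0 (left) and day 5 (right) for the 10 genes, with exact 95% intervals for counting error, dashed lines at 2-fold, an open triangle where shControl cells, at 0 reads, were set to 3 reads, and no point where both libraries had 3 reads or fewer. At day 5 shNFIB and shMLL1 cells lie above the upper line in 8 and 10 genes, while at day 0 no gene is called higher, the *Mx1* point of shMLL1 cells resting on 8 reads against 2.

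**Figure D4:**
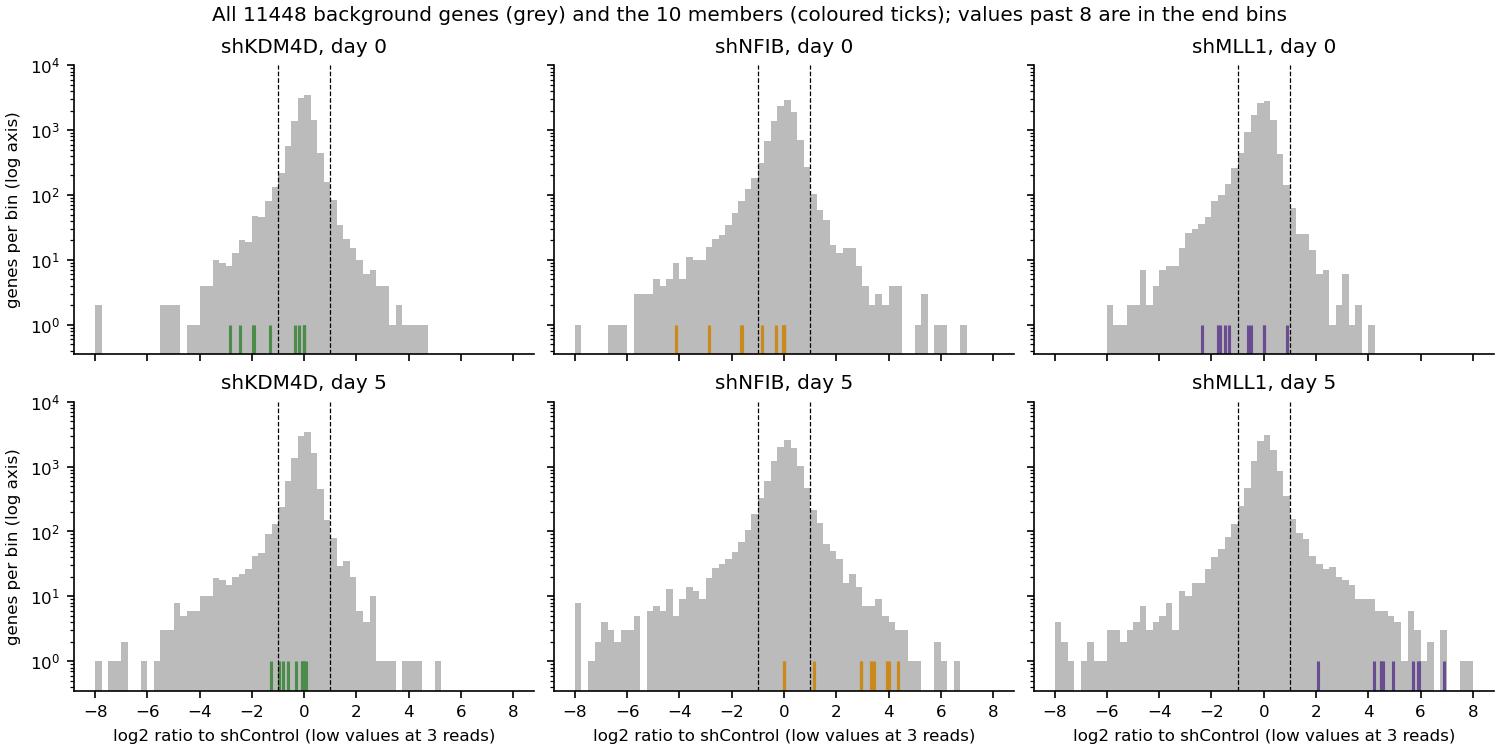
Number of genes (log axis) by log2 ratio to shControl cells, in bins of 0.25, for all 11448 expressed genes (grey) in 3 lines and 2 days, with the 10 genes as coloured ticks. At day 5 the ticks of shMLL1 cells are all past 2-fold, those of shNFIB cells reach 4.37, and those of shKDM4D cells lie between -1.27 and 0.07.

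From day 0 to day 5, some members rose by more than 2-fold in every line. *Ifit2* was lower at day 5 in shControl and shKDM4D cells, by less than 2-fold, as given above. In shControl cells 4 of 10 were past 2-fold upwards and 0 downwards (median log2 change 0.75), against 12.8% of all genes up and 8.36% down. The 4 were *Isg15* (1.26), *Ifit3b* (1.49), *Mx2* (1.48) and *Mx1*, which went from 2 to 28 reads, and with 1 added to every RPKM 1 was left. In shKDM4D cells 7 were past 2-fold upwards and 0 downwards (median 1.87), against 12.3% and 8.15% of all genes, and the changes of *Isg15*, *Ifit1* and *Ifit3* were 2.22, 2.23 and 2.13 from lower day 0 levels than in shControl cells. In shNFIB cells 7 were past this limit upwards and 0 downwards (median 5.47), against 12.1% and 4.83% of all genes, and *Ifit1* changed by 6.24 and *Ifit3* by 5.07. In shMLL1 cells all 10 were past it upwards and 0 downwards (median 7.38), against 20.1% and 6.87% of all genes, with *Ifit1* at 6.75, *Ifit3* at 7.20 and *Mx2* at 8.31. *Isg15* changed by 8.49 in shNFIB cells, from 3 reads to 917, and by 7.58 in shMLL1 cells, from 29 to 5536, so the larger value in shNFIB cells rests on 3 reads.

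The 2 lines with high levels differed most in *Rsad2* and *Cmpk2*. Between shMLL1 and shNFIB cells at day 5, 8 of 10 members were higher in shMLL1 cells and 0 lower (median log2 ratio 1.31), against 5.86% of all genes higher and 3.65% lower. Relative to *Gapdh*, 4 of 10 were higher. The ratio was 1.42-fold for *Ifit1*, 1.91-fold for *Ifit2*, 2.03-fold for *Mx2*, 2.32-fold for *Ifit3*, 2.46-fold for *Ifit3b* and 2.51-fold for *Isg15*. It was 3.92-fold for *Usp18* and 4.04-fold for *Mx1*. It was 74.8-fold for *Cmpk2* (log2 interval 4.36 to 9.28, with 2 reads in shNFIB cells) and 98.3-fold for *Rsad2* with shNFIB cells, at 0 reads, set to 3 reads. The lower ends of the exact intervals, log2 values of 4.36 for *Cmpk2* and 6.32 for *Rsad2*, lie above the upper end for *Mx1*, 2.25.

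Across the 8 libraries, on the log2(RPKM + 0.1) scale, the members are given as a group of 7 and 3 others, a division made by hand. Pearson's r lay between 0.94 and 1.0 in the 21 pairs among *Isg15*, *Usp18*, *Ifit1*, *Ifit3*, *Ifit3b*, *Mx1* and *Mx2*. It was 0.60 to 0.78 between *Ifit2* and the other 9 genes. Between *Rsad2* or *Cmpk2* and the other 8 it was 0.64 to 0.81, and 0.99 between *Rsad2* and *Cmpk2*. These 2 genes had more than 3 reads only in shMLL1 cells at day 5. The 8 points are libraries of different depth and the shMLL1 and shNFIB libraries of day 5 carry most of the range, so r is given as a description. The 10 genes whose pattern was most like the mean of the members, of 5902 ranked, were *Irf7* (r = 0.997), *Parp12*, *Ddx60*, *Hist1h1d*, *Ifi44*, *Oas1b*, *Psmb10*, *Oasl2*, *H2-K1* and *Psmb9* (0.989). *Irf7*, a transcription factor of the interferon pathway, was at an RPKM of 1.16 and 1.89 for shControl, 0.474 and 1.21 for shKDM4D, 0.298 and 13.3 for shNFIB and 0.471 and 80.6 for shMLL1. *H2-K1*, a class I histocompatibility antigen, went from 12.5 at day 0 to 609 at day 5 in shMLL1 cells and from 11.8 to 128 in shNFIB cells.

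The rest of the pathway was taken from lists of genes chosen by function. The 11 interferon genes had 3 reads or fewer in every library, so none could pass 2-fold after low values were raised to 3 reads. All 11 were at 0 reads in the 6 libraries of the lines other than shMLL1, and *Ifnb1*, interferon beta, had 1 read at day 0 and 3 reads at day 5 in shMLL1 cells. The receptor chains *Ifnar1* and *Ifnar2* were expressed in every library (18.4 and 35.2 RPKM in shControl cells at day 5) and neither was called in shNFIB or shMLL1 cells at day 5. Of the transcription factors, *Stat2* had a day 5 log2 ratio to shControl of 1.84 for shNFIB and 2.68 for shMLL1, and *Irf9* one of 1.76 and 2.06, while *Jak1*, a kinase of the receptor, was at 30.3 RPKM in shControl, 18.9 in shNFIB and 28.6 in shMLL1 cells.

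Of the nucleic acid sensors and adaptors, 4 of 9 measured genes were higher in shNFIB cells and 6 of 9 in shMLL1 cells at day 5. The share of all genes that was higher was 5.24% and 5.02%, here and for the enzymes below. *Ddx58*, which encodes the RNA sensor RIG-I, had a log2 ratio of 1.26 in shNFIB cells and 2.00 in shMLL1 cells. *Ifih1*, which encodes the sensor MDA5, was at 0.49 (0.14 to 0.84) in shNFIB cells and 3.65 (3.39 to 3.91) in shMLL1 cells. *Zbp1*, a sensor of Z-form nucleic acid, was at 0.689 RPKM in shControl, 15.1 in shNFIB and 57.3 in shMLL1 cells, while the kinase *Tbk1* stayed between 13.9 and 21.4 in all 8 libraries. The enzymes that attach ISG15 were also measured. *Uba7* (activating), *Ube2l6* (conjugating) and *Herc6* (ligase) were higher in both lines, 3 of 4 genes, with *Ube2l6* at 20.5, 55.8 and 102 RPKM in shControl, shNFIB and shMLL1 cells. *Trim25* had 2 reads or fewer in every library.

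The oligoadenylate synthetases, which start RNA decay through RNase L, had the largest median difference between both lines of the 10 lists. With RNase L, 6 of 9 were higher and 1 lower (*Oas1c*) in shNFIB cells, and 8 of 9 were higher and 0 lower in shMLL1 cells. *Oas1a* was at 2.09 RPKM in shControl, 5.66 in shNFIB and 62.8 in shMLL1 cells, and *Oas3* had 1, 20 and 1114 reads in these 3 day 5 libraries. Between shMLL1 and shNFIB cells, 8 of these 9 genes were higher in shMLL1 cells, against 5.86% of all genes. Their median log2 ratio was 2.82, where the median of the 10 members was 1.31. Of the 13 interferon-inducible GTPases, 9 were higher and 1 lower (*Gbp4*) in shNFIB cells, and 13 were higher in shMLL1 cells. *Gbp3* was at 8.84, 72.7 and 143 RPKM in shControl, shNFIB and shMLL1 cells, and *Iigp1* at 10.9, 14.4 and 175. Of 23 other effectors, 17 were higher and 0 lower in shNFIB cells, and 20 were higher and 1 lower (*Ifi27*) in shMLL1 cells, *Ifitm3*, which blocks virus entry, reaching 820 RPKM in shNFIB cells against 286 in shControl cells. The other 2 IFIT genes, *Ifit1bl1* and *Ifit1bl2*, were higher in both lines. Beside these day 5 counts against shControl cells, 5.24% of all genes were higher and 5.56% lower with the NFIB knockdown. For the MLL1 knockdown the shares were 5.02% higher and 3.88% lower.

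For comparison, 10 NF-kB targets and 10 reference genes were counted. In shNFIB cells 4 NF-kB targets were higher at day 5 (*Nfkbia*, *Il6*, *Ccl2* and *Cxcl1*), and in shMLL1 cells only *Il6*, at 65 reads against 4. The share of all genes that was higher was 5.24% in shNFIB cells and 5.02% in shMLL1 cells. *Cxcl1*, a neutrophil chemokine, was at 43.8 RPKM in shControl, 140 in shNFIB and 29.6 in shMLL1 cells. No reference gene was called in either line. In shKDM4D cells at day 5, 3 of 9 oligoadenylate synthetase and RNase L genes, 2 of 13 GTPases and 2 of 23 other effectors were lower, and 1 effector (*Ifitm1*) was higher, where 4.26% of all genes were lower and 1.67% higher. These are small counts, and that of the effectors is near the share of all genes. At day 0 the GTPases were lower in 7 of 13 genes in shKDM4D cells, 5 of 13 in shNFIB cells and 11 of 13 in shMLL1 cells, with 2 of 13 higher in shNFIB cells. Of all genes, 3.53%, 5.33% and 6.87% were lower in these 3 comparisons, and 2.60% were higher in shNFIB cells.

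**Figure D5:**
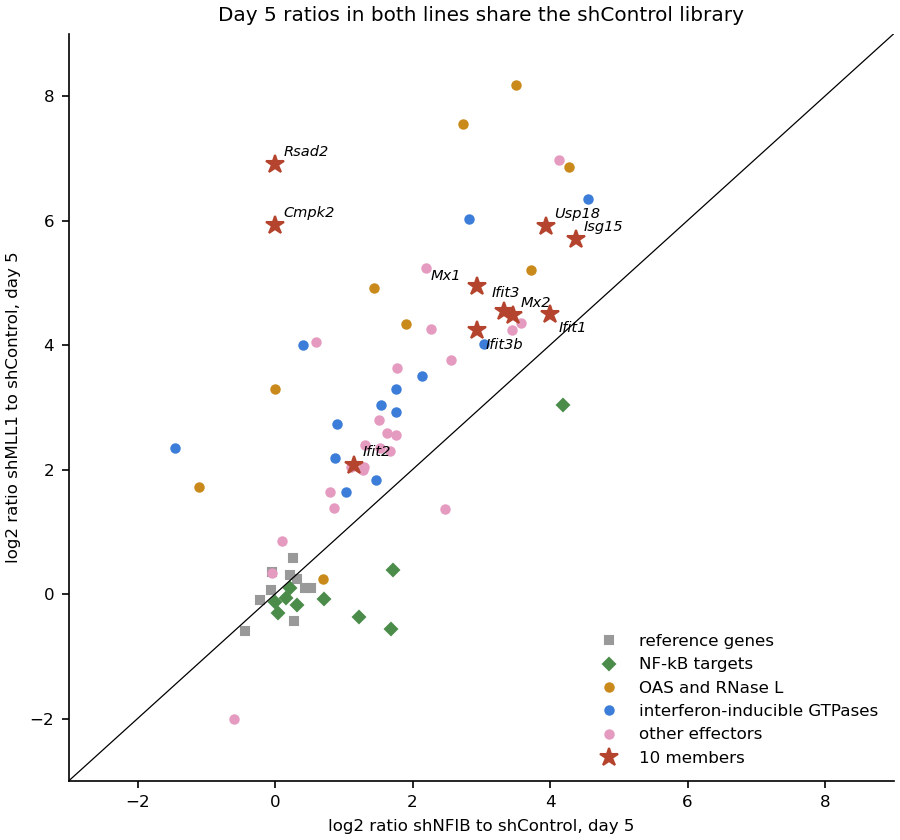
Log2 RPKM ratio to shControl cells at day 5 in shNFIB (x axis) and shMLL1 cells (y axis), both taken over the same shControl library and with low values raised to 3 reads, for the 10 genes (stars) and 5 lists (other symbols), with the line of equal ratios. *Rsad2* and *Cmpk2* lie at 0 on the x axis and high on the y axis, the other 8 genes lie above the line with positive ratios on both axes, and the reference genes lie near 0.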

How the data were processed

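The authors prepared libraries from total RNA with a SMARTer kit, had them sequenced on a HiSeq instrument and used CLC Genomics Workbench to align the reads to GRCm38. The authors deposited 1 RPKM value per gene and library. The strand setting of their counting is not given in the sources used here. From these values, reads and depth were recovered with the union exon length of GENCODE M21. Between 96.2% and 96.6% of the values from 1 to 1000 reads lay within 0.02 of a whole number. With 1 library per condition, no count model or p-value was used. Ratios have no pseudocount, and a gene was called past 2-fold after values under 3 reads (in the shallower library) were raised to 3. The 95% intervals are exact for counts. Named genes outside the members were the 3 most abundant of each list, the 10 most like the members' mean pattern, the targeted genes, and others that were chosen after their values were seen. The members and lists were chosen with earlier results of these data known. Results for the list of receptor and signalling genes are not reported here as a count. The computation was tested on simulated counts. Alternatives were another scaling (Gapdh, quantile, median-of-ratios, without rRNA-like genes), pseudocount, filter or fold limit. Python 3.11.15, numpy 2.4.6, pandas 2.3.3 and scipy 1.17.1 were used.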

Additional observations from a re-analysis of the deposited data

Results flagged for a closer look

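Of the 10 genes, 6 in shNFIB cells and 6 in shMLL1 cells had ratios to shControl cells of opposite sign at the 2 days with counting intervals that left out 0 on both days. Genes whose day 0 interval held 0, such as *Ifit2* in shNFIB cells (-0.02 and 1.15) and *Isg15* in shMLL1 cells (-0.62 and 5.70), are not among them. With 1 library per condition, none of these differences between days was tested. In shNFIB cells the log2 ratio was 4.37 at day 5 and -2.86 at day 0 for *Isg15*, 3.93 and -4.13 for *Usp18*, 4.0 and -1.65 for *Ifit1*, 3.33 and -0.84 for *Ifit3*, 2.94 and -0.31 for *Ifit3b*, and 3.46 and -1.60 for *Mx2*. The day 0 values of *Isg15* and *Usp18* rest on 3 reads each. In shMLL1 cells it was 5.91 and -1.50 for *Usp18*, 4.50 and -1.66 for *Ifit1*, 2.08 and -0.49 for *Ifit2*, 4.55 and -1.76 for *Ifit3*, 4.24 and -1.32 for *Ifit3b*, and 4.48 and -2.35 for *Mx2*. The change of *Ifit2* from day 0 to day 5 also went in opposite directions, with log2 values of 0.22 in shNFIB cells and 1.62 in shMLL1 cells against -0.95 in shControl cells, and this difference was not tested either.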

How the results depend on the processing

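None of the 660 ratios of single members recomputed under other scalings and pseudocounts changed direction where it had been called. Of the 660, 520 stayed within their counting interval. The other 140 include ratios with 0 reads in both libraries, such as *Rsad2* in shKDM4D against shControl cells at day 5, which have no interval and did not change. The rest moved outside their interval. The count of members lower at day 0 depended on low values. It went from 5 to 2 (RPKM + 1), to 2 (4-fold limit) and to 8 (no floor, a setting chosen after seeing the data) in shKDM4D cells, from 4 to 2 with RPKM + 1 and to 2 with the 4-fold limit in shNFIB cells, and from 5 to 3 and 1 in shMLL1 cells. In shKDM4D cells at day 5 the 1 lower member became 0 with RPKM + 0.1, RPKM + 1 or the 4-fold limit, 2 with no floor and 4 with a 1.5-fold limit. The number of members past 2-fold upwards between the 2 days went from 4 to 1 in shControl cells and from 7 to 4 in shKDM4D cells, both with RPKM + 1 and with the 4-fold limit. Between shMLL1 and shNFIB cells at day 5, 4 in place of 8 were higher relative to *Gapdh* and 3 at 4-fold. Scaling to *Gapdh* moved the median of all genes by up to 0.64 (log2). Of the 10 genes most alike in pattern, 4 were shared with a pseudocount of 1 and 2 with ranks. The counts of members higher in shNFIB and shMLL1 cells than in shControl cells at day 5 stayed within 1.5 times. No paired analysis was possible because the labels give no replicate numbers and each condition has 1 library, and for the same reason no replicate could be left out. Depth limits *Rsad2*, *Cmpk2* and, at day 0, *Mx1*, *Isg15* and *Usp18*.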

Other observations

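Other genes among the 10 most like the members in pattern were chosen for that likeness, so that their highest levels fall in the same libraries follows from the choice, and only their levels are given. *Psmb10*, a subunit of the immunoproteasome, had a day 5 RPKM of 5.67 for shControl, 4.75 for shKDM4D, 12.4 for shNFIB and 25.2 for shMLL1, and *Psmb9*, another subunit, at 0.297, 0.190, 1.36 and 11.2. *Parp12*, an ADP-ribosyltransferase, was at 7.19, 6.62, 16.5 and 34.9, and *Ddx60*, a helicase, at 0.357, 0.192, 3.79 and 11.3. *Hist1h1d*, a linker histone gene, was in the same group at a low level, 0.787, 0.798, 1.5 and 3.16.

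Besides *Kmt2a*, the values of *Cebpa* and *Pparg* as deposited did not come out as whole reads in some libraries. *Cebpa* was not whole in shKDM4D cells at day 5 (308.73 reads) and was whole in the other 7 libraries. *Pparg* was not whole in shControl cells at day 0 (644.8), in shKDM4D cells at day 5 (523.9) or in shMLL1 cells at day 0 (377.27) and day 5 (812.94), and was whole in the other 4. The cause was not tested. None of the 10 antiviral genes showed this.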
